A study of Oryctolagus cuniculus with 20 samples.

Results

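The genes described here are 5 myosin heavy chains of skeletal muscle, MYH1, MYH2, MYH3, MYH7 and MYH8, measured in rabbit jaw joint cartilage. They are 5 of the 818 genes that could be named on the array, and were followed through 23 of its 43603 probes. Only 1 probe carries one of the 5 symbols in its gene name, so the others were matched through the isoform named in the probe's description (IIa for MYH2, embryonic for MYH3, beta cardiac for MYH7, perinatal for MYH8) or through the RefSeq table of rabbit genes, which gives the symbol MYH1 for 5 probes and MYH7 for 1. By this reading MYH1 has 5 probes, MYH2 7, MYH3 2, MYH7 2 and MYH8 7. Names were clear for 20 of the 23. One MYH2 probe, the one that carries the symbol itself, is described as the cardiac alpha heavy chain, one MYH3 probe has a description that conflicts with other probes, and one MYH1 probe is listed for 3 Ensembl transcripts. These 3 are described on their own and stand for no gene.

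Condylar cartilage, which caps the articular head of the lower jaw, was taken from male rabbits 6 months old, and each of 20 arrays holds the RNA of 1 sample. The groups of 4 arrays are rabbits whose left temporomandibular joint had been surgically deranged 1, 2, 4 or 8 weeks before sampling, and untreated rabbits as control. A sham operation is not among the labels, and control has no time point. The design names 16 operated rabbits, divided at random, and 4 untreated ones, as many as there are arrays, so each array was taken as 1 rabbit. The strain is not given in the sources used here. Each group's arrays share 1 slide, so slide and group cannot be told apart, and control was scanned on the same day as the 2-week group but not the others.

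Myosin heavy chains are the motor proteins of the thick filament, whose heads pull on actin when muscle contracts. Adult mammalian fibres are typed by the chain they make: MYH7 in slow fibres, MYH2 in fast oxidative fibres and MYH1 in fast fibres of the IIx type. MYH3 and MYH8 are the embryonic and perinatal chains, made while muscle forms and again when it regenerates, and jaw muscles of several mammals keep some developmental or cardiac chains in adult life. Hyaline cartilage holds no muscle fibres, and the lateral pterygoid, a chewing muscle, attaches at the neck of the condyle. In the RefSeq rabbit assembly mOryCun1.1, MYH1 lies next to the locus that the array's probes describe as the 2b chain, and MYH7 neighbours MYH6, the cardiac alpha chain.

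The heavy chains share long stretches of sequence, and 4 probes that name different chains were drawn from the same coding stretch. Their common window of 42 bases is shown because it sets how far a probe can tell the chains apart. Capitals mark the 12 positions at which the 4 differ, in probes described as MYH1, as MYH2, as embryonic (the probe of conflicting description) and as another fast skeletal chain.
MYH1: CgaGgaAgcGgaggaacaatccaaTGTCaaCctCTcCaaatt
MYH2: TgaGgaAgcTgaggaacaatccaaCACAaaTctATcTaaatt
embryonic, conflicting description: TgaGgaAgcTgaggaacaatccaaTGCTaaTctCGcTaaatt
other fast chain: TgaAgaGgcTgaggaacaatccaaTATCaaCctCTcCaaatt
The MYH1 and MYH2 windows share 33 of 42 bases, and the whole 60-base MYH2 and embryonic probes, which start at the same base, share 53 of 60. Whether transcripts of one chain bound the probe of another was not tested. The probe listed for 3 transcripts is shown for the same reason, whole.
MYH1, listed for 3 transcripts: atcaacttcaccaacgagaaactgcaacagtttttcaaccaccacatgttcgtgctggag

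The first 30 bases of the probe that stands for each of 4 genes, and of the symbol-bearing MYH2 probe, are given, as read from the scanner files, so that they can be identified. No base is capitalised, since no part was singled out.
MYH1: agtgaagagtgatccatccacatgctggaa
MYH7: gctcacatagcagcagccccttgggaagaa
MYH8: gagtaaaacacctgcctaatgcagcgagtg
MYH3: acacctgacgtccatgggactccacatcac
MYH2 by symbol, described as cardiac alpha: aggagtgacgccgcctccggaaccccgctc
Probes of one gene overlap and are not independent: 5 of the MYH2 probes, and 5 of the MYH8 probes, are successive windows shifted by 1 base, sharing 59 bases with the next. Of the 23 probes, 16 passed the filter on dim probes, which keeps a probe if the scanner software marks 3 or 4 arrays of any group as well above background. Each gene is given by its kept probe of clear name with the highest mean level over the 20 arrays. For MYH3, MYH7 and MYH8 that probe passed only through the control group, and for MYH1 and MYH2 through control and 1 week, so a probe kept through control had to be higher there and the count of genes that differ supports nothing by itself.

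MYH1, the fast IIx chain, was bright on control replicates 1 and 2 and near background on most operated arrays. Its processed signal, in arbitrary linear units, was 50.7, 21.8, 23.6 and 8.63 at 1 week, 13.7, 12.3, 4.8 and 6.89 at 2 weeks, 7.14, 6.13, 43 and 8 at 4 weeks and 4.23, 6.51, 5.17 and 5.52 at 8 weeks, against 5950, 5160, 55.8 and 130 in control replicates 1 to 4. It was well above background on 3 arrays at 1 week and 1 at 4 weeks, on none at 2 or 8 weeks, and on all 4 control arrays. Every operated array lay below every control array once each was scaled to its 75th percentile. On that log2 scale MYH1 averaged -3.83 ± 0.59, -5.4 ± 0.64, -5.5 ± 1.07 and -6.37 ± 0.08 at 1, 2, 4 and 8 weeks, and 0.87 ± 3.29 in control (SD, n = 4 each). The control SD is several times those of the operated groups, because control replicates 1 and 2 stood far above 3 and 4.

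MYH2, the IIa chain of fast oxidative fibres, was highest on control replicate 2. Its signal was 218, 34.5, 32.8 and 15.5 at 1 week, 22.8, 15.8, 8.82 and 49.9 at 2 weeks, 33.4, 17.4, 9.08 and 34.6 at 4 weeks and 14, 22.6, 19.2 and 26.7 at 8 weeks, against 5240, 37800, 532 and 151 in control. Replicate 1 at 1 week reached the range of control, where replicate 4 was lowest; the other 15 operated arrays lay below all 4 control arrays. No array at 4 or 8 weeks and 1 at 2 weeks was well above background. The 5 tiled MYH2 probes gave 104 to 118 on that 1-week array, and on 14 of the other 15 operated arrays none of them was well above background. Mean levels were -2.8 ± 1.23, -4.19 ± 1.16, -4.6 ± 1.08 and -4.45 ± 0.21 at 1, 2, 4 and 8 weeks, and 2.41 ± 3.39 in control (SD, n = 4 each).

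MYH7, the slow chain shared by slow skeletal fibres and the heart, varied least between the control arrays. Its signal was 273, 13.5, 42.7 and 7.79 at 1 week, 10.8, 16.5, 15.3 and 18.9 at 2 weeks, 27.1, 13.9, 22.7 and 17.5 at 4 weeks and 15, 24.6, 18.6 and 24.9 at 8 weeks, against 2250, 4260, 664 and 198 in control. Replicates 1 and 3 at 1 week were well above background and no later operated array was; replicate 1 at 1 week had more signal than control replicate 4. Levels averaged -3.21 ± 1.7, -4.6 ± 0.62, -4.67 ± 0.34 and -4.43 ± 0.15 at 1, 2, 4 and 8 weeks, and 1.5 ± 1.8 in control (SD, n = 4 each). The second MYH7 probe reached at most 18.6 and never stood well above background, so MYH7 rests on 1 probe and the 2 disagree in control.

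MYH8, the perinatal chain, was bright in the same control arrays. Its signal was 48.1, 3.95, 5.11 and 5.4 at 1 week, 5.65, 5.58, 4.52 and 17.4 at 2 weeks, 6.52, 4.72, 8.1 and 7.42 at 4 weeks and 3.94, 5.82, 4.75 and 33.9 at 8 weeks, against 2920, 16900, 49.1 and 76.4 in control. Only replicate 1 at 1 week and replicate 4 at 8 weeks were well above background among operated arrays. The 33.9 of that 8-week array was not shared by the neighbouring MYH8 probe that overlaps it by 40 bases, which gave 5.21 there and was not well above background, whereas both probes were well above background on the 1-week array (48.1 and 49.2). MYH8 averaged -5.18 ± 1.43, -5.69 ± 1.07, -6.25 ± 0.14 and -5.82 ± 1.33 at 1, 2, 4 and 8 weeks, and 0.8 ± 3.91 in control (SD, n = 4 each).

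MYH3, the embryonic chain, was the only one of the 5 not well above background on any of the 16 operated arrays, where its signal ran from 4.21 to 10. In control it was 16.6, 5640, 196 and 54.4 in replicates 1 to 4, the first of them not well above background. MYH3 thus differs from the other 4 genes within the control group: control replicate 1, among the brightest for MYH1, MYH2, MYH7 and MYH8, was the dimmest for MYH3. Its levels averaged -5.56 ± 0.69, -5.96 ± 0.39, -6.15 ± 0.16 and -6.35 ± 0.09 at 1, 2, 4 and 8 weeks, and -1.08 ± 3.72 in control (SD, n = 4 each).

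**Figure D1:**
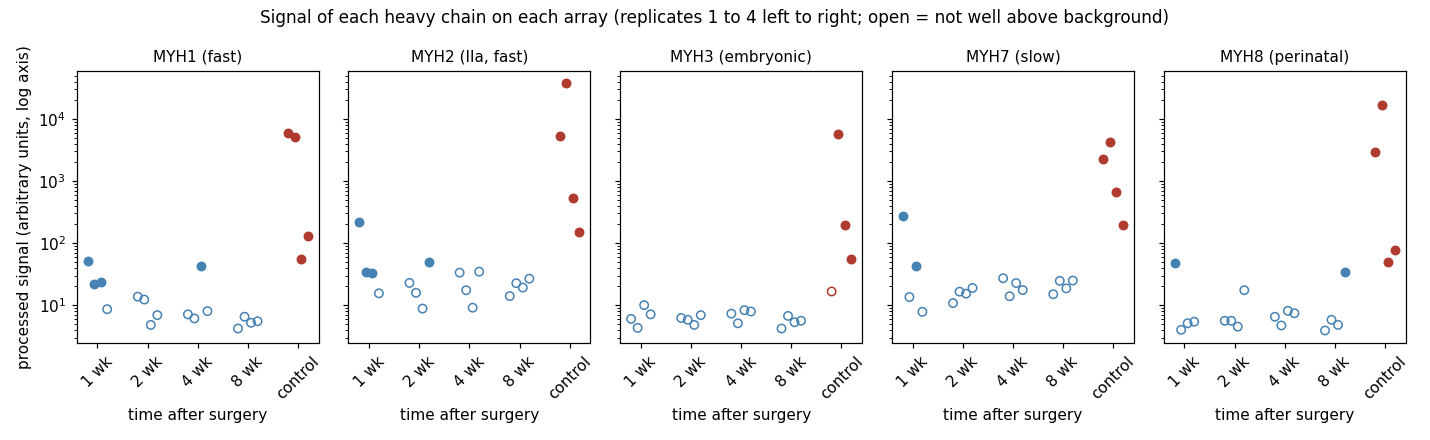
Processed signal of the probe that stands for each gene (vertical log axis, arbitrary units) on each of the 20 arrays, by weeks after surgery and in control; filled points were well above background and open ones were not. Control replicates 1 and 2 lie at 2250 or more for MYH1, MYH2, MYH7 and MYH8, control replicates 3 and 4 lie between 49.1 and 664 for all 5 genes, and operated arrays lie at 273 or less.

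The comparison with control asks whether muscle chains differ after derangement. In the limma fit over 26905 kept probes, all 5 genes were lower at 1, 4 and 8 weeks (adjusted p under 0.05), where 13.9%, 8.56% and 12.8% of all probes were called, and 4 of 5 were lower at 2 weeks, where 0.453% were called. In one direction, 4.21%, 0.212%, 2.19% and 4.3% of probes were called lower at 1, 2, 4 and 8 weeks. In the mean of the 4 operated groups against control all 5 were lower, where 9.97% of probes were called and 2.6% called lower. The median change over all probes lay between 0.023 and 0.041 at the 4 times. In bulk RNA, fewer muscle cells and less heavy chain RNA per cell cannot be told apart.

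The fitted log2 changes of MYH1 were -4.7 ± 1.05, -6.27 ± 1.05, -6.37 ± 1.05 and -7.24 ± 1.05 at 1, 2, 4 and 8 weeks (SE; adjusted p = 0.0062, 0.0129, 0.000843 and 0.000219). Those of MYH2 were -5.21, -6.61, -7.01 and -6.86 with an SE of 1.16 (adjusted p = 0.00604, 0.016, 0.000877 and 0.000871). MYH7 had the smallest SE, 0.76, and changes of -4.71, -6.09, -6.17 and -5.93 (adjusted p = 0.000402, 0.00156, 5.6e-05 and 7.12e-05). MYH8 changed by -5.98, -6.5, -7.06 and -6.62 with an SE of 1.33 (adjusted p = 0.00582, 0.0379, 0.00251 and 0.00342). MYH3 changed by -4.48, -4.88, -5.07 and -5.27 with an SE of 1.13 (adjusted p = 0.0133, 0.0751, 0.0088 and 0.00521), so the embryonic chain missed the threshold at 2 weeks. The fit shares 1 spread per gene among all groups, and control spread most for each gene, so these SEs understate the error against control. Leaving out 1 array at a time, the 2-week call was lost for MYH8 in 12 of 20 fits (highest adjusted p = 0.153), for MYH2 in 3 and for MYH1 in 1. With only the arrays of the groups compared in the fit, MYH7 alone was called at 1 week and none of the 5 at 2 weeks, which is also the comparison within 1 scan day (adjusted p from 0.094 for MYH7 to 0.47 for MYH3). With normexp background correction the changes were smaller, MYH7 alone was called at 4 and 8 weeks (-4.13 ± 0.62 and -3.96 ± 0.62; adjusted p = 0.012 and 0.0104), and no gene was called at 1 or 2 weeks. MYH3 also lost its call at 4 and 8 weeks with only the arrays compared (adjusted p = 0.0929 and 0.0689), and in the mean of the operated groups with normexp (adjusted p = 0.264).

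In groups where every array of a gene was too dim to measure, the change is a bound. It is taken from the mean of 4 control arrays of wide spread and carries no error. MYH2 was at least 82.6-fold lower at 4 weeks and at least 98.0-fold at 8 weeks. MYH7 was at least 38.8-fold, 44.6-fold and 52.9-fold lower at 2, 4 and 8 weeks, MYH1 at least 25.2-fold at 2 and 34.4-fold at 8 weeks, and MYH8 at least 24-fold at 2 and 27.6-fold at 4 weeks. For MYH3 the same calculation gave 7.66-fold at 1 week and 7.49-fold and 8.89-fold at 4 and 8 weeks. Control replicate 1, at 16.6, was itself not well above background for MYH3, so its values are not strict bounds.  The value for MYH3 at 2 weeks, where it was not called, was 6.52-fold. Changes in groups with 1 or more arrays above background are fitted values that rest partly on dim arrays.

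Two-sided exact permutation tests over arrays, 25 in all and unadjusted, gave the smallest p that 4 against 4 arrays allow, 0.0286, for MYH1 and MYH8 at every time and for MYH2, MYH3 and MYH7 at 2, 4 and 8 weeks. The groups did not overlap for these, as held for 5.57%, 1.46%, 5.86% and 8.76% of all kept probes in the same direction at 1, 2, 4 and 8 weeks. At 1 week MYH2, MYH3 and MYH7 each had 1 operated array above the lowest control array, and exact p = 0.0571. For MYH3 both arrays concerned were too dim to pass the background mark. All 16 operated against 4 control arrays gave exact p = 0.000206 for MYH1 and MYH8, the smallest possible, and 0.000413 for MYH2, MYH3 and MYH7. Every operated array below every control array, as for MYH1 and MYH8, was seen in 0.234% of all kept probes, through whichever group they were kept. The probes of MYH3, MYH7 and MYH8 were kept only through control, and those of MYH1 and MYH2 only through control and 1 week. Their exact p-values and lack of overlap were thus partly set by the filter and are descriptions.

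These changes lean on the brightest controls. Leaving out control replicates 1 and 2 removes the brightest arrays for MYH1, MYH2, MYH7 and MYH8. Replicates 3 and 4 alone then stand for control. The shared spread comes mostly from operated arrays, which were dim for most genes and for MYH3 without exception. The SEs and adjusted p-values of that limma fit are thus descriptions. Without control replicates 1 and 2 the log2 changes at 8 weeks were -4.43 ± 0.57 for MYH1, -4.24 ± 0.83 for MYH2, -4.69 ± 0.44 for MYH3, -4.58 ± 0.77 for MYH7 and -3.39 ± 0.87 for MYH8 (SE; adjusted p = 0.0004, 0.00866, 2.44e-05, 0.00274 and 0.042). At 1 week MYH3 (-3.89 ± 0.44, adjusted p = 7.16e-05) and MYH7 (-3.36 ± 0.77, adjusted p = 0.0167) kept their calls. MYH1 (-1.88 ± 0.57), MYH2 (-2.59 ± 0.83) and MYH8 (-2.76 ± 0.87) lost theirs (adjusted p = 0.0688, 0.0916 and 0.0829). At 2 weeks MYH1, MYH3 and MYH7 were called and MYH2 and MYH8 were not (adjusted p = 0.083 and 0.284). The bounds shrank most for MYH8, to 2.57-fold at 2 and 2.96-fold at 4 weeks, and for MYH1, to 3.58-fold at 2 and 4.88-fold at 8 weeks. At 8 weeks MYH2 was then at least 15.9-fold lower, MYH7 at least 20.8-fold and MYH3 at least 5.92-fold.

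**Figure D2:**
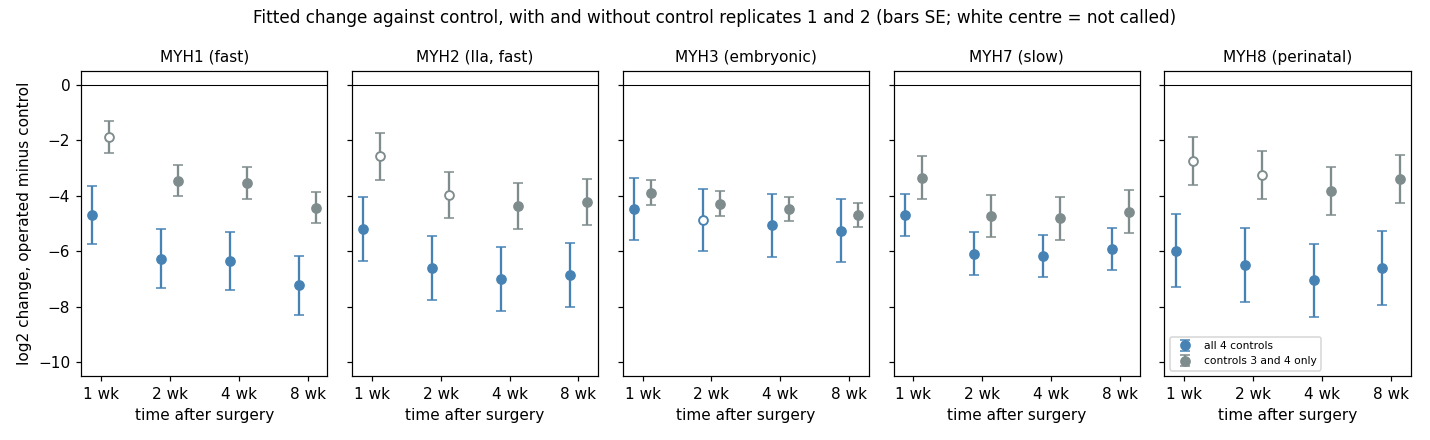
Fitted log2 change, operated minus control (vertical axis), at each time (horizontal axis), with all 4 control arrays and with control replicates 3 and 4 only; bars are SE and a white centre marks a change that was not called. MYH1 at 1 week is -4.7 with all controls and -1.88 without replicates 1 and 2, while MYH3 at 1 week is -4.48 with all controls and -3.89 without them.

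Between operated times none of the 5 genes was called in any of the 6 comparisons. Of all probes, limma called 11.4% at 2 weeks, 1.07% at 4 weeks and 0.0149% at 8 weeks against 1 week, 4.3% at 4 and 8.62% at 8 weeks against 2 weeks, and 0.558% at 8 against 4 weeks. Before adjustment 1 of the 5 genes passed 0.05 in 1 comparison, MYH1 at 8 weeks against 1 week (log2 change -2.55 ± 1.05, adjusted p = 0.277 by limma). In the same order as above, 26.8%, 12.3%, 14.6%, 19%, 23.1% and 13% of all probes passed before adjustment. The 1-week mean was the highest operated one for MYH1, MYH2, MYH7 and MYH8, and replicate 1 had the highest operated signal of each. MYH3, dim on all operated arrays, gives no order. Replicates 2 and 4 at 1 week had the lowest 75th percentiles of all arrays, 242.9 and 174.1. Scaling raises dim values most there, and its part in the 1-week means was not tested. The next brightest array at 1 week had 34.5 for MYH2 and 42.7 for MYH7, against 218 and 273 on replicate 1. Without control replicates 1 and 2 and that array, chosen after the data were seen, MYH2, MYH3, MYH7 and MYH8 were called at 1 week (log2 changes -3.17, -3.66, -4.18 and -3.41; adjusted p = 0.0246, 0.00017, 0.000111 and 0.0168). MYH1 was not, at -2.1 (adjusted p = 0.0521).

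The muscle signal was not of one composition in the control arrays. Comparing control replicate 2 with control replicate 1 for the same probe, MYH1 was near even, 1.1-fold to 1.38-fold on its 4 clear probes. MYH7 was 2.41-fold higher in replicate 2, the MYH8 probes 6.64-fold to 7.35-fold and the MYH2 probes 9.09-fold to 9.56-fold. MYH3 was at least 242-fold higher in replicate 2, since replicate 1 had no signal well above background. The 2b chain of fast fibres went the other way, at 0.341-fold and 0.351-fold on its 2 overlapping probes, which were well above background on no other array than these 2. The MYH1 probe that stands for the gene shares runs of 26 and 27 bases with these 2b probes. It also overlaps 2 of the other clear MYH1 probes, by 20 and 40 bases. Whether 2b transcripts bound it was not tested. The values compared are single arrays set side by side, with no replicate error.

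Control replicates 3 and 4 differed as well. Against control replicate 3, replicate 1 was 70.3-fold higher for MYH1 and 39.1-fold for MYH8, but 6.5-fold for MYH2 and 2.23-fold for MYH7. Control replicate 3 thus held less MYH1 and MYH8 relative to MYH2 and MYH7 than replicate 1 did. The same array was 24.1-fold below control replicate 2 for MYH3 and 59.6-fold below it for MYH2.

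**Figure D3:**
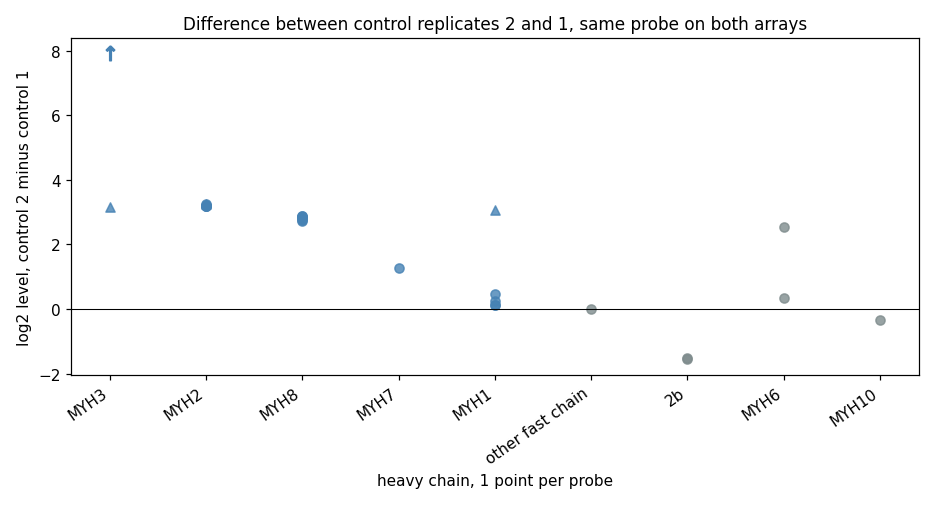
Log2 level in control replicate 2 minus control replicate 1 (vertical axis), 1 point per probe well above background on both arrays, by heavy chain (horizontal axis). Triangles are probes of conflicting or shared name, grey points are chains outside the 5 genes, and the arrow at MYH3 is a lower bound of its clear probe; MYH2 lies near 3.2, MYH8 near 2.8, MYH7 at 1.27, MYH1 from 0.13 to 0.47 and 2b at -1.51 and -1.55.

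The 3 probes of unclear name can be set against these patterns. The embryonic probe of conflicting description was 8.87-fold higher in control replicate 2 than in replicate 1 and 29.6-fold higher in replicate 1 than in replicate 3. The MYH8 probe that stands for the gene gave 7.35-fold and 39.1-fold for the same pairs, and the clear MYH3 probe had no value above background in replicate 1. The MYH1 probe listed for 3 transcripts was 8.38-fold higher in replicate 2, outside the 1.1-fold to 1.38-fold of the clear MYH1 probes. The symbol-bearing MYH2 probe was well above background on all 20 arrays, with 103 to 369 on operated arrays against 1490, 11200, 618 and 169 in control. It was lower at 1 and 8 weeks (log2 change -2.71 ± 0.74 and -2.57 ± 0.74; adjusted p = 0.0217 and 0.03) and not called at 2 or 4 weeks (-2.61 and -2.35; adjusted p = 0.2 and 0.0582). The clear MYH2 probes, by contrast, were well above background on few operated arrays.

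Other heavy chains on the array were read for comparison. Of the cardiac alpha chain, 2 probes named MYH6 were measured, and neither was called in any comparison with control. At 2 weeks they changed by -1.06 ± 0.34 and -1.86 ± 0.59 (SE, adjusted p = 0.306 and 0.303 by limma). The symbol-bearing MYH2 probe, also described as cardiac alpha, was called lower at 1 and 8 weeks, as given above. Probes described as this chain thus disagree. MYH6 signal on the brighter probe was 150 to 241 at 1 week and 60.5 to 82.7 at 2 weeks, against 57.8 to 254 in control, so operated groups and control overlapped. The dimmer probe gave 17.8 to 96.6 on operated arrays, against 108, 495, 37.2 and 27.4 in control replicates 1 to 4. It was 5.83-fold higher in control replicate 2 than in replicate 1, and the brighter probe 1.26-fold. Between times both MYH6 probes were lower at 2 weeks than at 1 week (log2 change -1.6 ± 0.34 and -1.89 ± 0.59; adjusted p = 0.00455 and 0.0477). MYH10, a non-muscle chain, changed by -0.1 ± 0.24 over the operated groups (adjusted p = 0.838). MYH13, the chain of eye and larynx muscle, had only dim probes on all 20 arrays, and each of the MYH11 probes, for the smooth muscle chain, passed the background mark on at most 1 control array.

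Sarcomere and muscle metabolism genes besides the 5 chains were read from a list of 71, of which 23 were measured, MYH6 among them. In limma's fit the list held 12 called lower at 1 week, 4 at 2 weeks, 13 at 4 weeks and 14 at 8 weeks. By the same adjusted threshold, 4.21%, 0.212%, 2.19% and 4.3% of all probes were called lower. No gene of the list was higher, also before adjustment. Of the 23, 6 passed the dim-probe filter only through control (ANKRD1, ATP2A1, CASQ2, MYOZ1, NEB and TTN) and so had to be higher there. Of the other 17, 7, 1, 8 and 8 were called lower at 1, 2, 4 and 8 weeks. The list's median log2 change was -2.58, -3.01, -2.86 and -3.02 at 1, 2, 4 and 8 weeks, against the near-zero medians of all probes above. That median takes in the 6 genes kept only through control, so part of the contrast was set by the filter. TNNC2, the calcium sensor of fast fibres, and ATP2A1, their calcium pump, changed by -6.99 ± 1.06 and -4.95 ± 1.01 at 8 weeks (SE; adjusted p = 0.000321 and 0.00382). LDHA, a lactate dehydrogenase subunit made in many tissues, and PYGM, the muscle glycogen phosphorylase, had values of -0.66 ± 0.34 and 0.18 ± 0.5 at 8 weeks and were not called. The named genes whose level followed MYH2 most closely over the 20 arrays were TNNC2 (r = 0.98), MYL11, a fast light chain (0.96), ATP2A1, NEB and CASQ2 (0.95 each), out of 603 genes. NEB, the thin filament ruler nebulin, was among the 5 closest for each of the 5 chains. Without control replicates 1 and 2, 18 arrays remained and r for the 5 closest genes of each chain lay between 0.61 (SLC2A4 with MYH1, ANKRD1 with MYH3) and 0.91 (TNNC2 with MYH2), with NEB between 0.69 for MYH8 and 0.88 for MYH3. The correlations are descriptions, since the points share the 2 bright control arrays.

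Markers of other tissues were summed per array in linear units relative to the array's 75th percentile. Skeletal muscle markers outside the heavy chains, 7 measured of 8, summed to 0.805 to 1.49 at 1 week, 0.561 to 1.98 at 2 weeks, 0.53 to 1.41 at 4 weeks and 0.547 to 0.693 at 8 weeks, against 60.7, 275, 5.72 and 3.03 in control replicates 1 to 4. The order of the control arrays, 2, 1, 3 and 4, is the one seen for MYH2, MYH7 and MYH8 down to replicates 3 and 4, which swap for MYH8. Hyaline cartilage markers, 4 measured of 8, summed to 511 to 2500 at 1 week, 195 to 508 at 2 weeks, 658 to 1370 at 4 weeks and 149 to 828 at 8 weeks, against 374 to 748 in control. COL2A1, the main collagen of cartilage, was well above background on all 20 arrays and makes up most of that sum. Its mean log2 level was 8.54 to 9.94 over the groups, against 1.79 to 4.53 for CNMD and negative values for ACAN and SOX9. In control the muscle sum likewise leans on TNNC2, at a mean of 4.06 against 0.93 or less for the other markers. Smooth muscle markers, 3 measured of 6, summed to 0.976 to 2.47, 1.75 to 4.4, 0.494 to 2.12 and 1.72 to 3.62 at 1, 2, 4 and 8 weeks, against 1.81 to 4.17 in control. Fibrous tissue markers, 5 measured of 6, summed to 1140 to 1720, 1320 to 1550, 1050 to 1280 and 1180 to 1360 at 1, 2, 4 and 8 weeks. In control they summed to 1350 to 1550. Among them LUM, the matrix proteoglycan lumican, was lower at 1, 4 and 8 weeks (log2 change -1.33, -1.14 and -1.19, limma adjusted p = 0.0105, 0.0354 and 0.0219). COL1A2, COL3A1, DCN and FN1, the others measured, were not called at any time. Of single markers, TAGLN of smooth muscle was lower at 4 weeks (-1.65, adjusted p = 0.0314 by limma). SOX9, a transcription factor of cartilage, was higher at 1 week (1.63, adjusted p = 0.0194). PLN, phospholamban, had log2 changes of 2.17 and 1.85 at 1 and 4 weeks (adjusted p = 0.00643 and 0.0261 by limma). The SOX9 and PLN probes passed the dim-probe filter only through 1 week, and no control array was well above background for either. Their rise at 1 week was thus partly set by the filter. At 4 weeks PLN was well above background on 1 array. The part of these tissues in the heavy chain differences was not tested. Of the developing muscle list, no gene had a named kept probe.

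**Figure D4:**
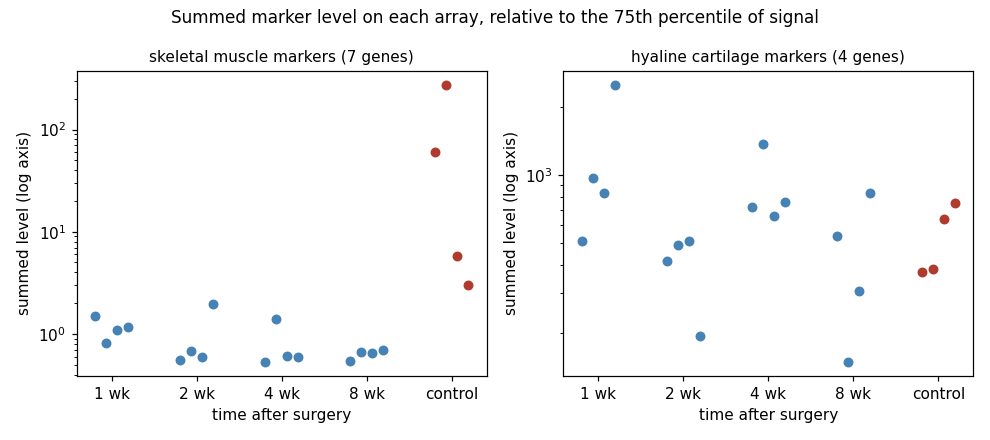
Summed level of 7 skeletal muscle markers other than heavy chains (left) and of 4 hyaline cartilage markers (right) on each array, relative to the 75th percentile of signal (log axes), by weeks after surgery and in control. Muscle markers reach 60.7 and 275 in control replicates 1 and 2, while cartilage markers at 374 to 748 in control overlap each operated group, and those at 2 weeks (195 to 508) lie below 1 and 4 weeks. The cartilage sum is mostly COL2A1.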

How the data were processed

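The values are the deposited intensity of each spot (gProcessedSignal), in arbitrary linear units on 1-colour arrays. Per the file headers, the authors read the arrays with Agilent Feature Extraction, and the submitters' processing notes give version 10.7.1.1. That signal is background-subtracted, and the software substitutes a low positive number for signals too weak to use, which sets many dim values here. The authors' deposited value table, also intensity, held the scanner values, with the 4 columns of the 8-week group exchanged among themselves.

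Control and outlier spots were left out and spots of a probe averaged. Levels are log2 signal minus the 75th percentile of the array. Of 43603 probes, 26905 passed the filter and were fitted with limma 3.58.1 (lmFit, eBayes; R 4.3.3), with 5 group means over all 20 arrays. P-values are two-sided, adjusted by Benjamini-Hochberg over all kept probes, and called under 0.05. A bound compares the control mean with a floor: on each dim operated array, the dimmest signal that passed the background mark, or the probe itself if brighter. Control arrays entered with their own signal, dim or not. Per array, 49.1% to 66.4% of spots were well above background, and 4 arrays per group limit the precision. The fit was tested on simulated data with the same normal spread in every group and no background floor. The heavy chains, with wide control spread and dim operated arrays, are not covered by that setting. Alternatives were another background correction, other scalings, filters, weights and spread estimates, a replicate block, the authors' table, the mean over probes, and arrays left out. Members and gene lists were chosen with earlier results of these data known. Every member gene is named, with list genes chosen by role and the named genes closest to a member by correlation.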

Additional observations from a re-analysis of the deposited data

Results flagged for a closer look

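Within groups of 4 arrays, 3 of 25 gene and group combinations had 1 array standing apart from the other 3 by more than Dixon's 95% critical value; chance flags about 1 in 20. MYH1 at 4 weeks was -3.9 on replicate 3, with the nearest other array at -5.97. MYH7 at 4 weeks was -4.17 on replicate 1, with the nearest at -4.82, and none of the 4 was well above background. MYH8 at 8 weeks was -3.82 on replicate 4, with the nearest at -6.42. The 4-week MYH1 value was well above background on 1 probe and not on the other 3 clear MYH1 probes of that array, and the MYH8 value was likewise not seen on the second kept MYH8 probe. Their cause was not tested.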

How the results depend on the processing

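Counts of the 5 heavy chains called lower, and of the 23 other muscle genes called lower, were recomputed under each setting. No change of a heavy chain reversed under any setting run. With normexp background correction, 0, 0, 1 and 1 heavy chains were called at 1, 2, 4 and 8 weeks, against 5, 4, 5 and 5, with 4 in the mean (not MYH3), and 0, 0, 1 and 1 muscle genes, with 3 in the mean of the operated groups, against 12, 4, 13, 14 and 17. That setting called 44, 0, 28 and 35 probes in all at the 4 times. With only the arrays compared in the fit, 1, 0, 4 and 4 heavy chains were called at 1, 2, 4 and 8 weeks (MYH3 lost at 4 and 8), and 0, 0, 3 and 5 muscle genes at the 4 times. These fits hold fewer arrays, and they do not borrow the smaller spread of the other operated groups. The SE of MYH1 was 1.42 to 1.48 in them, against 1.05 in the main fit. A filter asking for 4 of 4 arrays left 7, 2, 7 and 8 muscle genes, and 10 in the mean. Array weights gave 11 muscle genes at 2 weeks. Without control replicates 1 and 2, 2 heavy chains were called at 1 week, 1 between times (MYH1, 2 weeks against 1 week), and 6, 6 and 7 muscle genes at 1, 4 and 8 weeks, with 6 in the mean. Without 1-week replicate 1 as well, a setting chosen after seeing the data, muscle genes were 5, 6 and 7, with 6 in the mean. Where a cause is not stated, the cause was not tested.

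Leaving out 1 array at a time, the heavy chains called were 5 to 5 at 1, 4 and 8 weeks and in the mean, 2 to 5 at 2 weeks and 0 to 0 between times. At 2 weeks, 2 were called without replicate 2 or 3 of that group or without control replicate 1. Muscle genes ranged from 8 to 16, 0 to 11, 7 to 16 and 11 to 16 at the 4 times and 11 to 19 in the mean. With the replicate number as a block (replicate block), 5, 3, 5 and 5 heavy chains and 12, 4, 12 and 14 muscle genes were called. Same-numbered arrays had correlations of deviations between -0.33 and 0.38 and 4 of 20 arrays correlated best with their own number, so the numbers were not taken to pair the arrays. A block for scan day or slide could not be fitted, since group sets both. Dim probes limit the operated groups, where most values lie near background.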
